A study of Homo sapiens with 6 samples.

Results

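Integrins and laminins are the receptors and one family of the ligands with which epithelial and tumor cells hold on to the basement membrane, and their transcripts were followed here in RNA-seq libraries of Hep3B cells, a human hepatocellular carcinoma line, with and without a guide against RFX6, a transcription factor with a winged-helix DNA-binding domain. All rows of the deposited count table whose symbol names an integrin subunit (ITGA or ITGB) or a laminin chain (LAMA, LAMB or LAMC) were taken, without the rows of integrin-binding proteins. This gave 39 of 16720 named genes, of which 38 are described. They include 18 integrin alpha and 8 integrin beta subunits, laminin alpha, beta and gamma chains, and ITGBL1, a beta-like gene that is no receptor subunit.

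The control group, sgControl, is labelled WT and the other group, sgRFX6, carries the RFX6 knockout, with 3 libraries in each. The study's methods describe lentiviral delivery of Cas9 with a guide in the lentiCRISPRv2 vector, puromycin selection and expansion of clones grown from single cells, without saying how many clones gave the sequenced RNA. The knockout columns carry the tag sg3, taken here as a single RFX6 guide. A difference between groups therefore cannot be told apart from a difference between clones or from an effect of that guide at other sites. The labels do not say whether the 3 libraries of a group came from separate cultures, so each p-value measures the spread between these libraries, which may be technical.

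Integrins are dimers of an alpha and a beta subunit that span the membrane and tie the matrix to the actin or keratin skeleton. Laminins are cross-shaped trimers of an alpha, a beta and a gamma chain, named after the genes that supply them, and they polymerize into the sheet on which epithelial cells sit. Laminins with the LAMA3 and LAMB3 chains anchor epithelia through the integrin of ITGA6 and ITGB4 in the hemidesmosome, and those with LAMA5 line most adult epithelia. In the liver, laminins are scarce along the sinusoids and are laid down around bile ducts and vessels and in carcinomas.

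Total counts per library ran from 16730374 to 25070770, so that 3 counts, the floor used here for detection, equal 0.120 to 0.179 CPM, the count scaled to the size of the library. The floor covers counting error only. Of the defining hepatocyte transcripts, ALB held 293 to 793 counts and TTR 6 to 21 over the 6 libraries. APOB held 253 to 1586 and FGB 54 to 850, both lower in every sgRFX6 library, and edgeR called FGB (adjusted p = 0.0042). APOB was called with the GC correction described below (adjusted p = 0.0192). AFP rose, from 39 to 51 counts in sgControl to 201 to 353 in sgRFX6, and was called (log2 fold change 2.82, adjusted p = 0.00254). TF was higher in CPM in every sgRFX6 library without a call (adjusted p = 0.189), and overlapped with the GC correction. ALB, TTR, APOA1 and SERPINA1 overlapped. The 8 hepatocyte markers summed to 112 to 145 CPM in sgControl and 68.6 to 111 in sgRFX6. Of the biliary and progenitor markers, KRT19 held 8956 to 23604 counts, KRT7 31 to 390 (lower in every sgRFX6 library, not called as scaled), SOX9 67 to 141 and EPCAM 9 to 24. KRT7 was called with the GC correction (adjusted p = 0.0425). The library sgRFX6 3 stood apart from its group in base composition. Across the 12205 tested genes with a known GC content, its log2 difference from sgRFX6 1 and from sgRFX6 2 fell with GC content (Spearman rho = -0.83 and -0.82, a description across genes within libraries), whereas sgControl 2 against sgControl 1 gave 0.49. Values after a correction for this trend are therefore given where they change a call or whether the groups overlap. RFX6 itself held 5.64, 5.83 and 7.34 CPM in sgControl 1 to 3 and 3.43, 3.71 and 3.50 in sgRFX6 1 to 3. All sgRFX6 values lay below all sgControl values, but the edgeR fit did not call the difference (log2 fold change -0.82 ± 0.26 SE, adjusted p = 0.142), and called it with the GC correction (-0.85, adjusted p = 0.049). Transcript level cannot show whether a frame-shifting edit abolished the protein.

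The bases upstream of LAMA4, LAMB2, LAMB3 and ITGAM are shown because the guide is against a DNA-binding factor. They are among the 10 tested genes whose CPM did not overlap between the groups, and edgeR called only LAMA4 and ITGAM. RefSeq (GRCh38.p14) supplied an upstream sequence for 27 of the 38 genes. Each line gives the 250 bases before a RefSeq transcript start, 5′ to 3′ on the gene's strand. The letters searched, on both strands, were GTTGCC and GTTACC, which are half-sites of RFX family factors, and TGANTCA, the AP-1 site, and capitals mark a match.
LAMA4, chr6:112254568-112254817, minus strand: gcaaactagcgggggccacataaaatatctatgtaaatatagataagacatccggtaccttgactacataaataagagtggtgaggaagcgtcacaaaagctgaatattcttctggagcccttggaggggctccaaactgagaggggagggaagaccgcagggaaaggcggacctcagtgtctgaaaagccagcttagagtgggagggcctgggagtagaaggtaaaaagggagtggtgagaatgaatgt
LAMB2, chr3:49133051-49133300, minus strand: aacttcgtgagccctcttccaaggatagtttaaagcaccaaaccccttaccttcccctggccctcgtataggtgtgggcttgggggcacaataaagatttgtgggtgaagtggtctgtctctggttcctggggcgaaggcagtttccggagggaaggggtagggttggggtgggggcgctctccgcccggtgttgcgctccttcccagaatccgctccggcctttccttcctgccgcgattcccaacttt
LAMB3, the second of 3 starts, chr1:209652330-209652579, minus strand: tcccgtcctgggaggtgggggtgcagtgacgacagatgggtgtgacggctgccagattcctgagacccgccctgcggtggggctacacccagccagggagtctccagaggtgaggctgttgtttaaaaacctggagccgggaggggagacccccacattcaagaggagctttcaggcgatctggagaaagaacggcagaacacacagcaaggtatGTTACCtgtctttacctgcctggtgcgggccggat
LAMB3, the third start, chr1:209651375-209651624, minus strand: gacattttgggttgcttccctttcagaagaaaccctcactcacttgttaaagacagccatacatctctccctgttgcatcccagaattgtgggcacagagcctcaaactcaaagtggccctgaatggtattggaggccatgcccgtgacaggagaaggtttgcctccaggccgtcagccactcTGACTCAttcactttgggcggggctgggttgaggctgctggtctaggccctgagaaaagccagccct
ITGAM, chr16:31259725-31259974, plus strand: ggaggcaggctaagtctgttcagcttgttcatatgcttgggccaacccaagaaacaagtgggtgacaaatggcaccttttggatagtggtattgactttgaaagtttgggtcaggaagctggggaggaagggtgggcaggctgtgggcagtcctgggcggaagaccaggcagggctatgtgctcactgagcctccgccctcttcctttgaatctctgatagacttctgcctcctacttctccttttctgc

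The windows of LAMA4, LAMB2 and ITGAM held none of these letters. LAMB3 held GTTACC 35 bases before the second start and the AP-1 letters 67 bases before the third, and the window of the first start, which overlaps that of the second, held none. The windows of LAMC1 and LAMA3 were listed as well. They held GTTGCC 115 bases before the start of LAMC1 and the AP-1 letters at 2 places before that of LAMA3. Matches in the windows of the remaining genes are not given here. GTTGCC was found in 10.2%, GTTACC in 5.41% and TGANTCA in 6.57% of 35116 such windows over all genes, so that a match is a description of the window and does not mark a bound site.

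Of the 38 genes, 26 had enough counts to be tested with edgeR, and 2 of them passed an adjusted p of 0.05, or 7.69%, against 3.74% of all 12839 tested genes. LAMA4 and ITGAM were the 2, both higher in sgRFX6, against 1.92% of all genes called in that direction and 1.81% called lower. DESeq2 called 5 of the 26 (LAMA4, ITGAM, LAMB2, LAMB3 and ITGA10), against 6.97% of all genes. With limma-voom 14 were called, against 31.1%. They were those 5 and ITGA2, ITGA3, ITGA11, ITGAL, ITGAX, ITGB1, ITGB4, ITGB7 and LAMA5. The median log2 fold change of the 26 was 0.18, with 17 positive and 9 negative, against 0.02 over all tested genes, of which 52.7% were positive. At an unadjusted p under 0.05 there were 8 of the 26 against 15.6% of all. The 2 groups did not overlap in 10 of the 26 genes, 4 higher and 6 lower in sgRFX6, which is 38.5% against 23.1% of all genes (12.0% higher and 11.2% lower). Among these 10 were 5 of the 8 tested laminin chains and 5 of the 18 tested integrin subunits. The remaining 12 genes held at most 13 counts in any library, and 5 of those (ITGA4, ITGA8, ITGAD, ITGB3 and ITGBL1) stayed at or under 3 counts throughout. With GC correction 7 of the 26 were called, against 10.8% of all genes. These were LAMA4, ITGAM, LAMB3 and ITGA3 higher, against 5.90% of all genes, and LAMB2, ITGA10 and ITGA11 lower, against 4.91%. The corrected CPM did not overlap in 13 of the 26, against 33.5% of all genes.

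**Figure D1:**
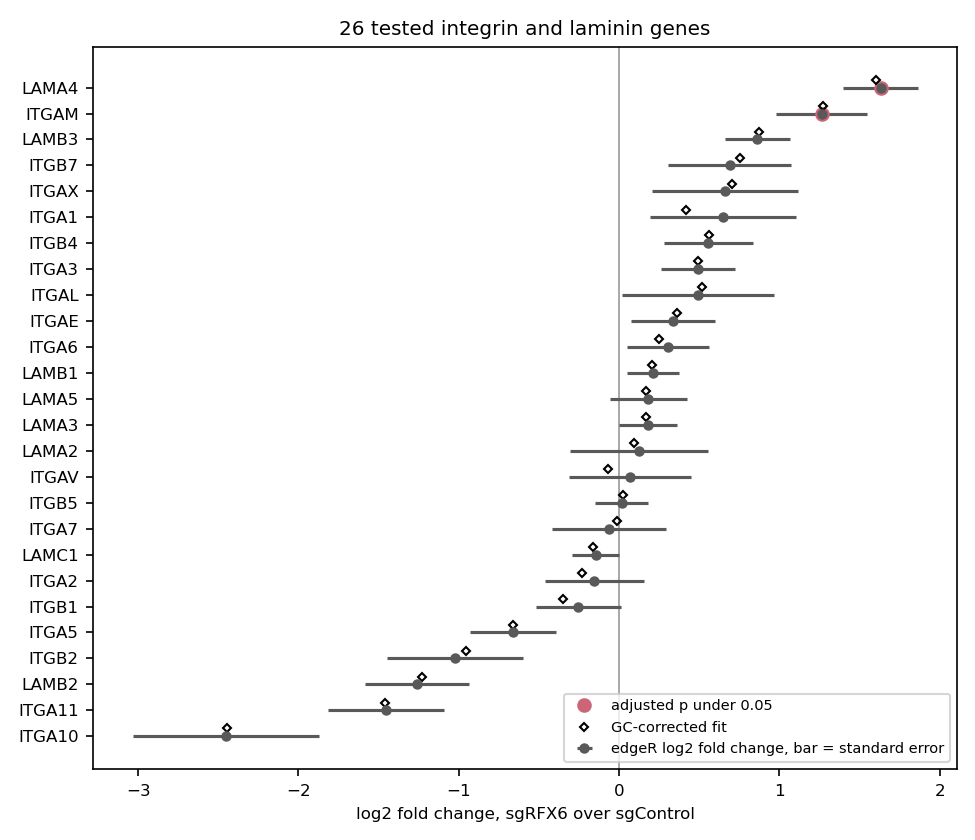
Log2 fold change of sgRFX6 over sgControl for the 26 tested genes, in order of size, with the edgeR estimate as a filled circle, its standard error as a bar and the GC-corrected estimate as an open diamond. LAMA4 and ITGAM, in red, were the genes with an adjusted p under 0.05, and the correction moved no estimate by more than 0.232.

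Among the alpha chains, LAMA4 (chr6:112108760-112254939, minus strand; GRCh38, GENCODE coordinates here and below) rose. This chain is typical of vessel walls, muscle and fat, and has a truncated short arm. It held 4.63, 5.95 and 5.57 CPM in sgControl and 17.6, 14.96 and 17.5 in sgRFX6, and the 2 groups were tight and far apart. The log2 fold change was 1.63 ± 0.23 SE (adjusted p = 0.00683), and it was called in all 16 alternative fits, with adjusted p up to 0.049. The summed level of the 4 endothelial markers measured was 11.8 to 13.6 CPM in sgControl and 13.4 to 19.7 in sgRFX6, nearly all of it PECAM1. PECAM1 held 11.9, 11.4 and 13.0 CPM in sgControl and 19.3, 13.2 and 17.2 in sgRFX6, higher in every sgRFX6 library without a call (0.46, adjusted p = 0.401). With the GC correction the groups of PECAM1 overlapped (adjusted p = 0.159). KDR held at most 1 count, TEK at most 4 and VWF at most 13 in any library, and the part of these markers in the LAMA4 value was not tested. LAMA5 (chr20:62307955-62367312), the alpha chain of most adult epithelial basement membranes, was far more abundant, at 454, 706 and 493 CPM in sgControl and 684, 725 and 468 in sgRFX6, with overlapping groups (0.18 ± 0.24 SE, adjusted p = 0.814). LAMA3 (chr18:23689443-23956222), the alpha chain of the hemidesmosomal laminin, held 74.7, 60.2 and 55.3 CPM in sgControl and 77.0, 73.5 and 65.2 in sgRFX6. Those groups overlapped as well (0.18 ± 0.18 SE, adjusted p = 0.731). LAMA2 was tested at 7 to 23 counts (0.12 ± 0.43 SE, adjusted p = 0.944), and LAMA1, the embryonic chain, held 0 to 12.

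The beta chains LAMB2 and LAMB3 went opposite ways without passing the edgeR test as scaled, whereas DESeq2 and limma-voom called both. LAMB3 (chr1:209614870-209652466, minus strand), the beta chain of the hemidesmosomal laminin, held 37.8, 39.9 and 41.1 CPM in sgControl and 76.2, 84.8 and 54.9 in sgRFX6. Every sgRFX6 library was above every sgControl library (log2 fold change 0.86 ± 0.20 SE, adjusted p = 0.0565), and sgRFX6 3 was the lowest of its group. After GC correction the 3 sgRFX6 values drew together at 70.1, 73.4 and 70.9 CPM against 40.2, 36.4 and 40.3, and the gene was called (0.88 ± 0.11 SE, adjusted p = 0.00254). LAMB2 (chr3:49121114-49133118, minus strand), the beta chain of muscle, nerve and kidney basement membranes, held 64.7, 132 and 63.6 CPM in sgControl and 38.7, 43.6 and 26.6 in sgRFX6. The groups did not overlap and sgControl 2 was the outermost value (-1.26 ± 0.33 SE, adjusted p = 0.0788). With GC correction it was called (-1.23 ± 0.24 SE, adjusted p = 0.0173), and without sgControl 2 the uncorrected estimate was -0.82 (adjusted p = 0.16). LAMB1 (chr7:107923799-108003255), the most abundant beta chain, held 424, 419 and 382 CPM in sgControl and 456, 432 and 528 in sgRFX6. Its groups did not overlap as scaled (0.21 ± 0.16 SE, adjusted p = 0.621), but overlapped after GC correction (0.205 ± 0.136 SE, adjusted p = 0.390). The annotation gives LAMB1 and DLD 70 shared exonic bases and LAMA5 and ADRM1 244, on opposite strands in both pairs. The counting strand is not given in the sources used here, and reads from these stretches cannot be assigned. LAMC1 (chr1:183023460-183145592), the widely used gamma chain, held 303, 298 and 308 CPM in sgControl and 288, 270 and 264 in sgRFX6. All sgRFX6 values lay below all sgControl values by a small step (-0.15 ± 0.15 SE, adjusted p = 0.733). LAMC3 held 5 to 7 counts in every library and was not tested.

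**Figure D2:**
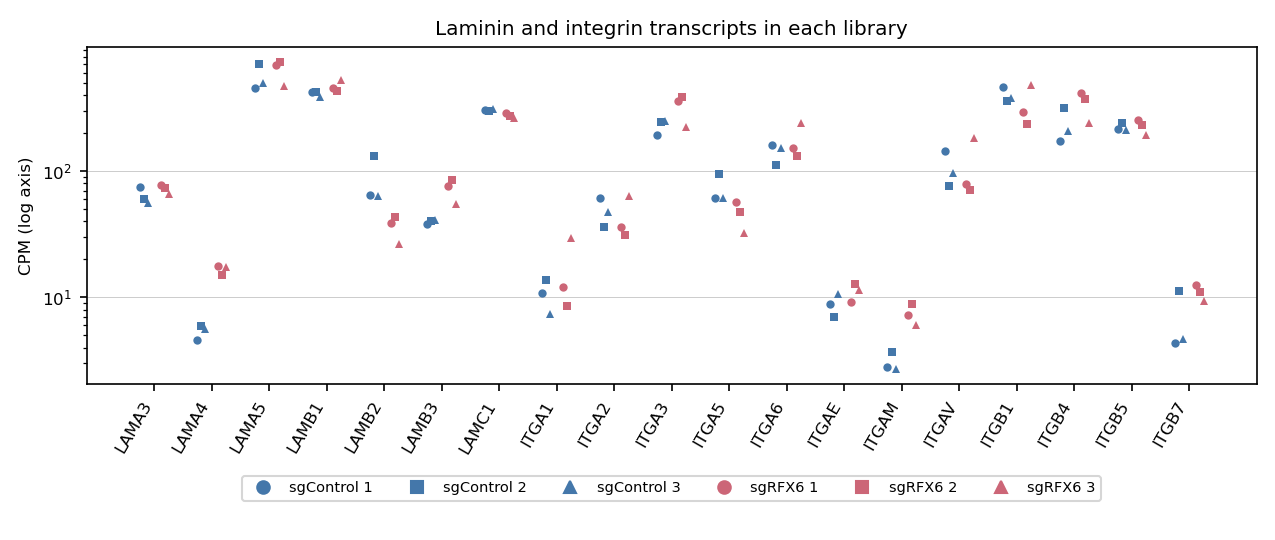
CPM on a log axis for the 19 integrin and laminin genes that were called or held a mean of at least 10 CPM in a group, with one marker per library (sgControl in blue, sgRFX6 in red, shape for the replicate number). LAMA4, LAMB3, ITGAM and, narrowly, LAMB1 are separated upwards and LAMB2, ITGA5 and, narrowly, LAMC1 downwards, whereas LAMA5, LAMA3, ITGB5 and ITGAV overlap.

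None of the 5 integrin subunits below, which bind laminin, was called by edgeR, whereas limma-voom called ITGA3, ITGB1 and ITGB4. ITGA3 (chr17:50055968-50090481), whose dimer with ITGB1 is the main epithelial laminin receptor, held 193, 246 and 248 CPM in sgControl and 360, 384 and 224 in sgRFX6. The library sgRFX6 3 lay inside the sgControl range and the others well above it (0.49 ± 0.23 SE, adjusted p = 0.362). After GC correction all 3 sgRFX6 libraries, at 328, 326 and 296 CPM, exceeded the sgControl libraries at 206, 224 and 244 (0.49 ± 0.11 SE, adjusted p = 0.028). ITGB4 (chr17:75721328-75757818), the hemidesmosomal beta subunit, showed the same layout, with 173, 317 and 207 CPM in sgControl and 411, 372 and 242 in sgRFX6 (0.56 ± 0.28 SE, adjusted p = 0.393). Its GC-corrected groups separated upwards, with an estimate of 0.56 ± 0.17 SE that was not called (adjusted p = 0.0759). ITGA6 (chr2:172427354-172506282), the alpha partner of ITGB4, held 161, 111 and 152 CPM in sgControl and 152, 131 and 240 in sgRFX6, and overlapped in both fits (0.30 ± 0.25 SE, adjusted p = 0.658). ITGB1 (chr10:32900319-33005792), the subunit shared by most integrin dimers, held 462, 359 and 379 CPM in sgControl and 291, 235 and 481 in sgRFX6 (-0.25 ± 0.27 SE, adjusted p = 0.746). Its library sgRFX6 3 was the highest of all 6, and after correction it joined the other sgRFX6 libraries below the sgControl range, at 327, 288 and 335 CPM against 402, 416 and 391 (-0.35 ± 0.11 SE, adjusted p = 0.0761). ITGA7, a laminin receptor of muscle, held 4.72 to 10.5 CPM in sgControl and 5.41 to 8.17 in sgRFX6 (-0.06 ± 0.36 SE, adjusted p = 0.966).

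**Figure D3:**
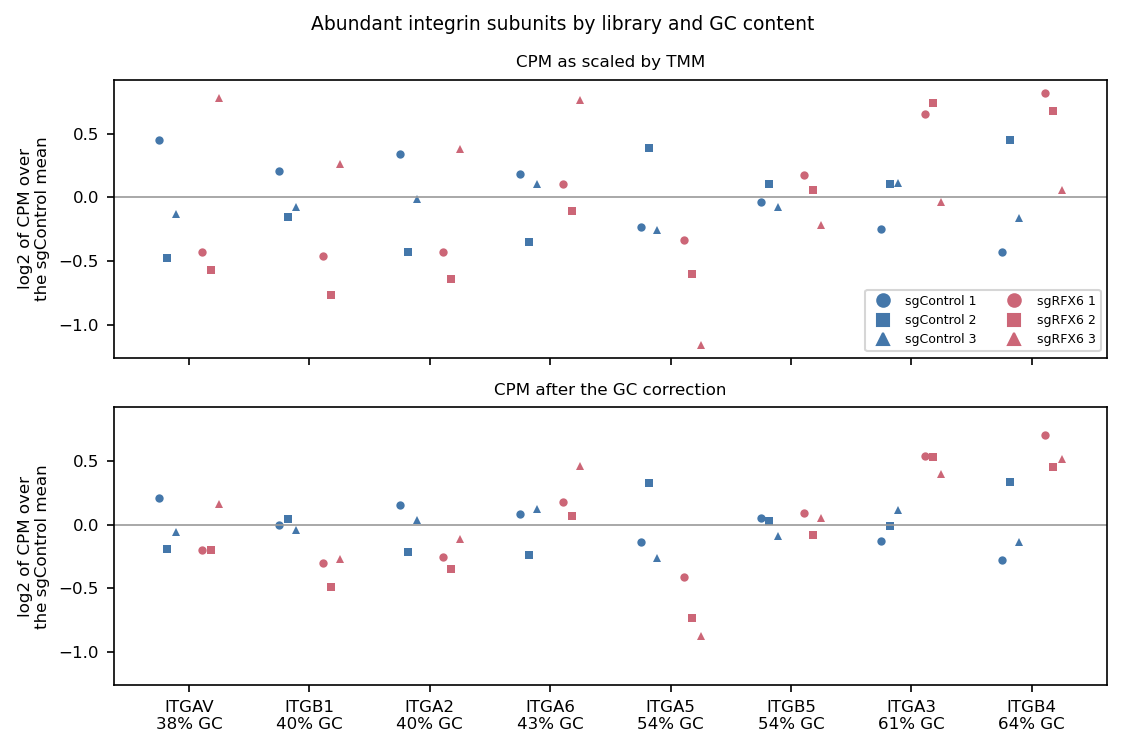
Log2 of CPM over the sgControl mean for 8 abundant integrin subunits, ordered by the GC content of the longest annotated transcript, before (top) and after (bottom) the GC correction, with one marker per library. Before correction the triangle of sgRFX6 3 is the highest point for the AT-rich ITGAV, ITGB1, ITGA2 and ITGA6 and the lowest sgRFX6 point for the GC-richer ITGA5, ITGB5, ITGA3 and ITGB4, and after it ITGB1 lies below the sgControl points and ITGA3 and ITGB4 above them.

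Collagen receptors pair an alpha subunit that carries an inserted I domain with ITGB1. ITGA2 (chr5:52989326-53094779) held 61.1, 35.8 and 47.7 CPM in sgControl and 35.9, 31.0 and 62.9 in sgRFX6, and its neighbour ITGA1 (chr5:52787896-52959210) held 10.8, 13.8 and 7.43 against 12.1, 8.61 and 29.5. Both overlapped between groups and both peaked in sgRFX6 3 (-0.15 ± 0.31 SE, adjusted p = 0.891 for ITGA2 and 0.65 ± 0.45 SE, adjusted p = 0.572 for ITGA1). Without sgRFX6 3 the estimate of ITGA1 was -0.046. PELO lies within ITGA1 on the same strand and shares 475 exonic bases with it. The 2 fibroblast and cartilage collagen receptors were lower in every sgRFX6 library, and they, like ITGB2 below, are singled out after their values were seen, since they fall below the abundance at which genes were otherwise named. ITGA10 (chr1:145891208-145910189) had 35, 149 and 51 reads in sgControl 1 to 3 against 12, 14 and 8 in sgRFX6 1 to 3. The high value of sgControl 2 weighed on it: the estimate was -2.45 ± 0.58 SE (adjusted p = 0.0578), and -1.69 (adjusted p = 0.102) without that library. ITGA11 (chr15:68296533-68432162) had 41, 55 and 36 reads against 16, 8 and 17 (-1.46 ± 0.36 SE, adjusted p = 0.0686). With GC correction both were called, with adjusted p of 0.0274 for ITGA10 and 0.0311 for ITGA11. DESeq2 called ITGA10, and limma-voom both. Collagen I transcripts fell beside them. COL1A1 went from 113 to 122 counts in sgControl to 20 to 27 in sgRFX6 (-2.08, adjusted p = 0.0108), and COL1A2 from 40 to 45 to 2 to 4 (-3.71, adjusted p = 0.00276). Of the other fibroblast or stellate markers, PDGFRB had 10, 15 and 5 reads in sgControl against 3, 0 and 2 in sgRFX6, too few to test. DCN held 10 to 23 counts in sgControl and 7 to 10 in sgRFX6. LUM held 388 to 616 counts in sgControl and 327 to 1205 in sgRFX6, the summed level of the 6 was 24.9 to 33.1 CPM in sgControl and 21.3 to 56.4 in sgRFX6, and ACTA2 held at most 8 counts. The part of these markers in the ITGA10 and ITGA11 values was not tested.

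Receptors for fibronectin and vitronectin recognize the RGD sequence. ITGA5 (chr12:54395261-54419460), the alpha subunit of the main fibronectin receptor, held 61.5, 94.7 and 60.6 CPM in sgControl and 57.3, 47.6 and 32.3 in sgRFX6. The highest sgRFX6 library lay just under the lowest sgControl library (-0.66 ± 0.27 SE, adjusted p = 0.271, and 0.0622 with GC correction). ITGAV (chr2:186590065-186680901), the alpha subunit of the vitronectin receptors, held 145, 76.0 and 97.0 CPM in sgControl and 78.8, 71.3 and 183 in sgRFX6. It spread widely within both groups (0.07 ± 0.38 SE, adjusted p = 0.966), and after the GC correction it stood at 92.1 to 121 CPM in sgControl and 91.3 to 117 in sgRFX6. Its partner ITGB5 (chr3:124761948-124901418) held 217, 239 and 211 CPM in sgControl and 252, 231 and 191 in sgRFX6 (0.02 ± 0.17 SE, adjusted p = 0.981). ITGB3, ITGB6 and ITGB8, which pair with ITGAV as ITGB5 and ITGB1 do, held 0 to 13 counts. FN1, the fibronectin ligand and the most abundant transcript among the adhesion genes considered, stood at 10597 ± 3432 CPM (SD, n = 3) in sgControl and 10123 ± 835 (SD, n = 3) in sgRFX6 (-0.07, adjusted p = 0.95).

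ITGAM (chr16:31259967-31332892, plus strand) encodes the alpha-M subunit, which pairs with ITGB2 on neutrophils and macrophages. It held 2.79, 3.69 and 2.72 CPM in sgControl and 7.20, 8.92 and 6.04 in sgRFX6, from 58 to 91 and from 133 to 145 counts. The groups were clearly apart and the gene was called (1.26 ± 0.28 SE, adjusted p = 0.0449). The call did not hold in 5 of the 6 fits that left out 1 library, where adjusted p ran from 0.034 to 0.203, and it did not hold when the median shift of the 50 nearest tested genes was taken off (0.88, adjusted p = 0.187). Those 50 neighbours had a median log2 fold change of 0.39. ITGAX, with 8 to 25 counts, and ITGAL, with 17 to 69, lie on chromosome 16 as well and had estimates of 0.66 (adjusted p = 0.567) and 0.49 (adjusted p = 0.714), with neighbour medians of 0.39 and 0.34. After GC correction ITGAX was higher in every sgRFX6 library, without a call (adjusted p = 0.334). ITGB2, the obligate partner of ITGAM, ITGAX and ITGAL, had 36, 95 and 38 reads in sgControl 1 to 3 against 29, 17 and 23 in sgRFX6 1 to 3. Every sgRFX6 value was below every sgControl value, opposite in direction to ITGAM, without a call (-1.02 ± 0.43 SE, adjusted p = 0.286). Other leukocyte markers were low, with 4 to 22 counts of PTPRC, 9 to 45 of CD14 and at most 1 of CD3E. CD14 overlapped as scaled and was lower in every sgRFX6 library after GC correction, without a call (adjusted p = 0.272). The summed CPM of these 3 and ITGAM was 4.23 to 6.36 in sgControl and 7.72 to 9.74 in sgRFX6. Without ITGAM the sum was 1.49 to 2.67 and 0.817 to 1.68 CPM, and the part of these markers in the ITGAM value was not tested. ITGAE (chr17:3714628-3801243) and ITGB7 (chr12:53191318-53207307), which pair on lymphocytes of mucosa, held 6.93 to 10.6 and 4.34 to 11.3 CPM in sgControl and 9.14 to 12.8 and 9.36 to 12.5 in sgRFX6. Neither was called by edgeR (0.34, adjusted p = 0.621 and 0.69, adjusted p = 0.452), whereas limma-voom called ITGB7. ITGB7 shares 1886 exonic bases with ZNF740 on the other strand, so its value is uncertain. ITGA4 and ITGA2B, of other blood cells and of platelets, held 0 to 2 and 1 to 11 counts.

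To see how the mix of chains differed, CPM was divided by the length of the longest annotated transcript, and each chain was expressed as its share of the chains of its class in the same library, for laminin alpha, laminin beta, integrin alpha and integrin beta. Such shares do not depend on how the libraries are scaled, but do depend on the transcript length taken and on the GC trend described above. They are given without the GC correction unless stated. Among the beta chains, LAMB3 went from 9.71% ± 1.12 (SD, n = 3 here and below) to 16.0% ± 3.89 and LAMB2 from 15.7% ± 5.56 to 6.13% ± 1.65, so that LAMB2 was the larger of the pair in every sgControl library and LAMB3 in every sgRFX6 library. They were closest in sgControl 3, at 12.9% and 11.0%. LAMB1 remained the main chain, at 69.0% to 78.4% in sgControl and 73.2% to 83.9% in sgRFX6. LAMA4 went from 1.51% ± 0.20 to 4.12% ± 1.13 of the alpha chains, beside LAMA5 at 87.1% ± 3.36 and 85.0% ± 2.62 and LAMA3 at 11.2% ± 3.29 and 10.7% ± 1.43, which overlapped.

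In CPM, 23.1% of all tested genes did not overlap between groups, which is another measure and another set of genes than the shares. The 35 shares computed in these 4 classes include genes too low to test. Of the 35, 9 did not overlap, ITGB8 (0 to 3 and 3 to 9 counts) included. Each of these had the smallest p that an exact two-sided permutation test of 3 against 3 libraries can give, 0.1, or 0.389 after Benjamini-Hochberg adjustment over the 35 shares, so the design cannot carry a share past 0.05. Among the integrin alpha subunits, ITGA3 was the largest share in every library except sgRFX6 3, where ITGA6 reached 32.1%. ITGA3 stood at 31.8% to 41.8% in sgControl and 30.6% to 55.6% in sgRFX6. With the GC correction sgRFX6 3 held 296 CPM of ITGA3 and 194 of ITGA6, on transcripts of 5479 and 5618 bases. ITGA3 was then the higher of the pair. The share of ITGA5 was lower in every sgRFX6 library, at 13.2% ± 3.78 against 7.14% ± 2.09. Among the beta subunits, ITGB1 supplied 53.3% ± 7.28 and 43.3% ± 13.7 and ITGB4 19.7% ± 5.73 and 28.9% ± 8.65. Without the GC correction these shares overlapped, and ITGB5 had a mean of 25.6% in both groups. After it, the CPM of ITGA3 and ITGB4 was higher and that of ITGB1 lower in every sgRFX6 library. The summed CPM per kilobase of the alpha subunits was 108 to 111 in sgControl and 126 to 133 in sgRFX6 (exact permutation p = 0.1, 0.4 after adjustment over the 4 classes), whereas the sums of the beta subunits and of the laminin alpha and beta chains overlapped.

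**Figure D4:**
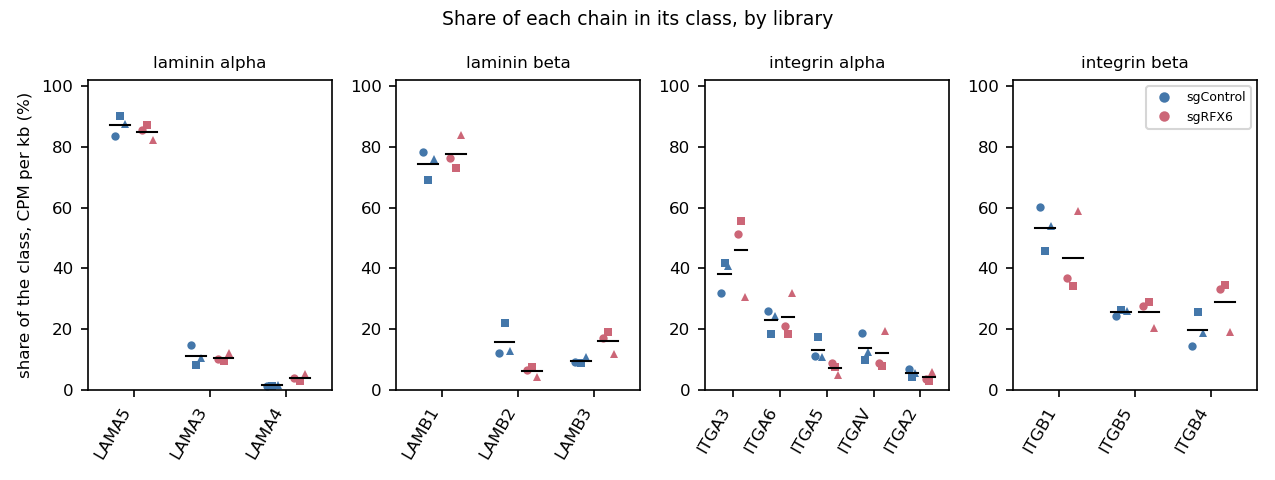
Share of each chain in the length-scaled transcripts of its class, in percent, for the main chains of the 4 classes, with one point per library and a line at the group mean. Shares are from CPM without the GC correction. LAMA4 and LAMB3 are higher and LAMB2 and ITGA5 lower in every sgRFX6 library than in every sgControl library. The other chains shown overlap.

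The genes that work with these chains were described from 6 lists of 148 genes, of which 117 could be tested. Of these 9 were called, or 7.69% against 3.74% of all genes, with 3 higher and 6 lower. The hemidesmosome list had 1 call among 12, COL17A1, the transmembrane collagen that joins ITGB4 to the hemidesmosomal laminin. It held 14.0, 19.9 and 16.8 CPM in sgControl and 52.3, 51.2 and 47.0 in sgRFX6, and rose with the groups far apart (1.57 ± 0.21 SE, adjusted p = 0.00458). PLEC, the plakin that links ITGB4 to keratin, overlapped at 3210 ± 523 and 4505 ± 1138 CPM (SD, n = 3; 0.49, adjusted p = 0.411), and was higher in every sgRFX6 library after GC correction, at 3254 ± 808 and 4360 ± 32.5 CPM, still without a call (adjusted p = 0.193).

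Basement membrane genes other than laminins had 4 calls among the 12 of 24 that could be tested. NID1, which bridges laminin gamma chains to collagen IV, fell from 381, 468 and 446 CPM to 271, 250 and 217 (-0.81 ± 0.17 SE, adjusted p = 0.0346), and it is also the only call among 22 tested integrin ligands. SPARC, a collagen-binding matrix protein, fell from 118, 254 and 189 counts to 29, 7 and 10 (-3.35 ± 0.50 SE, adjusted p = 0.00852). COL4A4, a collagen IV chain, went from 31, 64 and 26 counts to 0, 0 and 2 (adjusted p = 0.00805), which is under the floor in every sgRFX6 library. NTN4, a netrin that binds laminin gamma chains and breaks up laminin networks, rose from 24.5, 19.6 and 23.8 CPM to 49.2, 58.2 and 67.6 (1.36 ± 0.21 SE, adjusted p = 0.00884). The abundant AGRN and HSPG2 overlapped between groups (adjusted p = 0.695 and 0.693). After GC correction AGRN was higher in every sgRFX6 library, at 839 ± 106 and 949 ± 14.7 CPM (SD, n = 3; adjusted p = 0.409), and HSPG2 lower, at 478 ± 29.8 and 390.03 ± 20.8 (adjusted p = 0.122).

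The proteases that cut laminins and other matrix had 3 calls among 17. MMP7, matrilysin, rose from 14.8, 10.8 and 19.2 CPM to 82.2, 103 and 118 (2.76 ± 0.26 SE, adjusted p = 0.00123). MMP1, interstitial collagenase, went the other way, from 15.9, 14.8 and 18.6 CPM to 1.94, 2.01 and 1.54 (-3.17 ± 0.26 SE, adjusted p = 0.000801). The nearest 50 tested genes of both, which lie in the same gene cluster, had a median of 0.49 for MMP7 and 0.48 for MMP1. PLAT, tissue plasminogen activator, fell from 172, 479 and 213 counts to 10, 16 and 12 (-4.19 ± 0.47 SE, adjusted p = 0.0026). TNS4, a tensin that binds the tail of beta integrins, was the 1 call among 37 focal adhesion genes and fell from 45.8, 28.4 and 52.5 CPM to 14.2, 21.7 and 12.2 (-1.40 ± 0.31 SE, adjusted p = 0.0431), while FLNA and CAV1, the most abundant of that list, overlapped. Of the 18 tested laminin receptors outside the integrin family, 0 were called by edgeR or with the GC correction, 2 had an unadjusted p under 0.05, and DESeq2 called 1 and limma-voom 2.

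**Figure D5:**
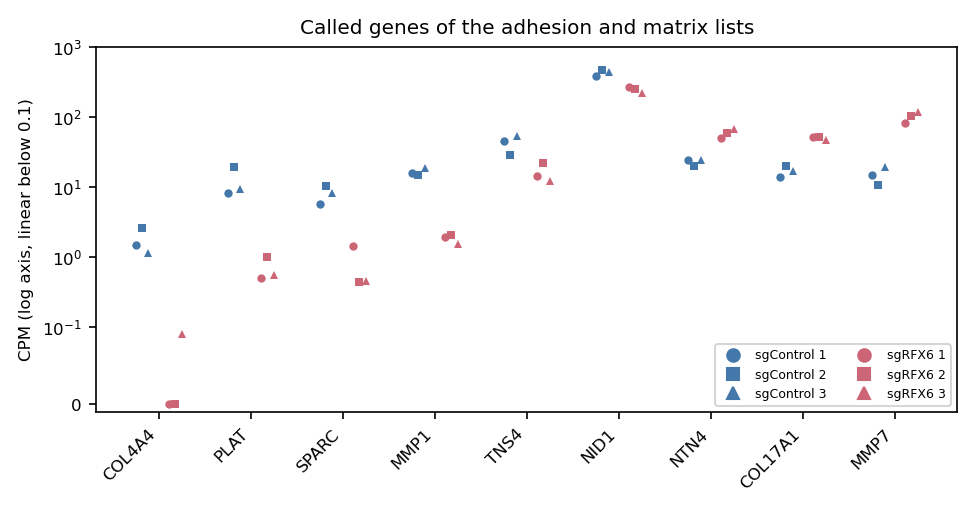
CPM on an axis that is logarithmic above 0.1 and linear below it, for the 9 called genes of the adhesion and matrix lists, in order of fold change, with one marker per library. COL4A4, PLAT, SPARC, MMP1, TNS4 and NID1 are lower and NTN4, COL17A1 and MMP7 higher in every sgRFX6 library than in every sgControl library.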

How the data were processed

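Total RNA of 6 Hep3B libraries was sequenced on an Illumina platform. The authors deposited one table of raw read counts per gene, with the build GRCh38 (hg38) named in their processing notes; the aligner, counter, annotation and strand setting are not given in the sources used here. The table was used as deposited, except for 1 row with no gene name, which held less than 0.0001% of each library. Columns were assigned to libraries by name and number; the control columns carry the tag cas and name no guide, and were taken as sgControl, the only control group.

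Counts were scaled by TMM and tested with the quasi-likelihood test of edgeR 4.0.16 in R 4.3.3 over all 12839 genes passing filterByExpr (minimum count 10), with Benjamini-Hochberg adjustment and a threshold of 0.05. CPM values carry the same scaling. Alternatives were DESeq2 1.42.0, limma 3.58.1 (voom with quality weights), other scalings and filters, a replicate block, leaving out each library, removal of the median of the nearest 50 genes, and a GC correction. The last subtracts a loess trend (span 0.3) of each library's deviation from the mean over all libraries against transcript GC content, so it can also remove a trend shared by a group. The edgeR, GC-corrected and voom fits were run on simulated data with less spread between libraries than these, which therefore give no error rate for the calls here. GENCODE v29 gave gene positions, transcript lengths and GC content for 15422 genes matched by name and 256 by another symbol. The members and lists were chosen with earlier results of these data known. Genes were named with full values if called or at a mean of at least 10 CPM in a group; in each list, called genes and at most the 2 most abundant others. Fewer cells of a type and less RNA per cell cannot be told apart in bulk libraries. Of the 39 genes chosen, 1 is not reported here and was left out of all counts over them, as was 1 leukocyte marker.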

Additional observations from a re-analysis of the deposited data

How the results depend on the processing

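The 2 integrin and laminin calls became 5 with DESeq2, 14 with limma-voom, 4 without a filter on low counts, 7 with GC correction, 1 with the nearest 50 genes taken off, and 1 to 4 when 1 library was left out. Without sgRFX6 3 there were 4 (ITGA3, ITGAM, LAMA4 and LAMB3), against 5.52% of all genes. Without sgControl 2, sgControl 3, sgRFX6 1 or sgRFX6 2 there was 1 (LAMA4), against 1.62% to 3.05% of all genes. Over all genes the 480 calls became 895 with DESeq2, 3998 with limma-voom, 1388 with GC correction and 212 to 718 without 1 library; 9 calls in the adhesion lists became 18, 47 and 23 under the same 3 settings. The 14 integrin and laminin calls with limma-voom thus stand beside 31.1% of all genes. RFX6 was called with limma-voom (-0.96) and GC correction (-0.85), and in none of the other 14 alternatives. LAMA4 was called under all 16 alternatives.

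Same-numbered libraries did not deviate together (correlations -0.41, 0.17 and -0.09), and no sgRFX6 library was closest to the sgControl library of its own number, so the numbers were not taken to pair the libraries. With the replicate block 4 members were called (LAMB2 and ITGA10 beside the 2), or 15.4%, against 5.05% of all genes. With the block and GC correction 5 were called, or 19.2%, against 5.07%. Reversed signs occurred in members not called by edgeR. With limma-voom the estimates were -0.019 for ITGA6, 0.26 for ITGA7, -0.012 for ITGAE and -0.41 for ITGAV; with GC correction -0.066 for ITGAV; with the replicate block 0.0083 for ITGA7 and -0.021 for ITGAV, and with both 0.043 and -0.067. Taking off the nearest genes gave -0.012 for ITGAV, -0.43 for ITGB5 and -0.13 for LAMA3. Leaving out 1 library gave -0.046 to 0.95 for ITGA1, -0.52 to 0.049 for ITGA2, -0.27 to 0.38 for ITGA7, -0.49 to 0.36 for ITGAV, -0.073 to 0.12 for ITGB5 and -0.21 to 0.39 for LAMA2. The causes were not tested. In an alternative chosen after seeing the data, shares from GC-corrected CPM kept the direction of the difference in means of all 6 shares recomputed. Shares from counts not scaled by length gave a difference of 1.54 percentage points for LAMA4 in place of 2.61. The 12 members with at most 13 counts were not tested; of these only ITGB8 (0 to 3 and 3 to 9 counts) did not overlap in CPM.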
